A study of Homo sapiens with 9 samples.

Results

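The genes described are 9 members of the NRF2 pathway, taken as a given list and found by gene symbol in all 9 expression tables: HMOX1, GCLC, GCLM, NQO1, TXNRD1, SRXN1, SLC7A11, NFE2L2 and KEAP1. They are 9 of the 26636 genes that every table lists, and 8 of them are among the 13014 that were tested because their FPKM (fragments scaled for transcript length and library size) averaged 1 or more over the libraries. SRXN1 stayed below that mean and was fitted only without the filter on low genes. RNA was sequenced from BT549, by its label an established human cell line (derived from a breast tumour of the triple-negative class), 48 h after transfection with siWFDC21P-2, with siWFDC21P-1 or with the control siRNA siNC (5 µl at 10 µM), 3 libraries each. Both targeting siRNAs are directed at the pseudogene transcript WFDC21P; the controls are labelled WT and received siNC. The labels do not say whether the libraries of a group came from separate cultures, so that p-values measure the spread between these libraries, which may be technical. The library names of siWFDC21P-2 end in different numbers that the labels do not explain.

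NRF2, encoded by NFE2L2, is a transcription factor that the adaptor protein KEAP1 holds for degradation under basal conditions. Electrophiles and oxidants modify KEAP1, NRF2 then accumulates, and with small MAF proteins it binds antioxidant response elements (AREs) near genes of glutathione synthesis, thioredoxin reduction, quinone reduction and heme breakdown. HMOX1 is in addition repressed by BACH1 and induced by heat shock, metals and heme, and SLC7A11 is also a target of the amino acid response factor ATF4.

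Before the members are described, the libraries have to be set apart, because they did not form the groups that their titles give. Clustering on all tested genes other than the members gave 3 expression backgrounds. The VIM-high background held the 3 siWFDC21P-2 libraries and siNC replicate 3. The EPCAM-high background held siWFDC21P-1 replicate 3 and the library labelled siNC replicate 2, and the KRT8-high background held siWFDC21P-1 replicates 1 and 2 and siNC replicate 1. Pearson correlations of log2(FPKM + 1) were 0.928 to 0.986 within backgrounds and 0.659 to 0.744 between them. EPCAM, an epithelial adhesion gene, was at 209 and 228 FPKM in the EPCAM-high libraries and at or below 0.0731 in the other 7. KRT8, an epithelial keratin, was at 93.4 to 232 FPKM in the KRT8-high and 3.99 to 5.44 FPKM in the VIM-high libraries. It was also at 293 and 135 FPKM in the EPCAM-high libraries. The name KRT8-high thus stands for high KRT8 without EPCAM, and KRT8 alone does not set these libraries apart from the EPCAM-high ones. CDH2, a mesenchymal cadherin, was at 14.7 to 18.1 FPKM in the VIM-high libraries and at or below 0.00698 FPKM in the other 5, although all 9 carry the same BT549 label. The VIM-high libraries also had their own style of library name, their own gene table and a lower depth (16.3 to 17.4 M reads behind the FPKM, against 28.1 to 29.7 M in the other 5), so that background and these features cannot be told apart. The siWFDC21P-2 libraries and their siNC library share all of them, whereas siWFDC21P-2 and siWFDC21P-1 were never used in the same background. WFDC21P itself was at 60.2%, 48.3% and 30.8% of its siNC level in siWFDC21P-2 replicates 1 to 3, and at 2.04% and 24.9% in the KRT8-high siWFDC21P-1 libraries. In the EPCAM-high pair too few reads covered it for a check of the label, 7 with siWFDC21P-1 and 4 in the library labelled siNC. Each knockdown library is compared with the siNC library of its own background, and each background has a single siNC library.

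Promoter windows of 250 bases before and 50 after the start site were held by RefSeq (GRCh38.p14) for 7 of the 9 genes, in 10 windows. They are shown for GCLM, TXNRD1 and KEAP1, whose windows hold the ARE core TGACNNNGC on either strand (in capitals), and for NQO1, whose window does not hold these letters. The windows of GCLC, SRXN1 and NFE2L2 do not hold them either. Of the genes with a match, GCLM and TXNRD1 were below siNC in all 3 siWFDC21P-2 libraries and KEAP1 was not. Of the genes without one, GCLC, SRXN1 and NFE2L2 were below siNC in all 3 and NQO1 was above it. Sequence outside these windows was not searched, and the part of a match in these values was not tested. In GCLM the match starts 34 bases before the start site and reads GCTTAGTCA, which is the motif on the opposite strand. TXNRD1 has 2 annotated starts, with matches starting 99 and 8 bases before the first and 102 bases before the second. In KEAP1 the matches lie in the window of the second start, 54 and 31 bases before it. Of all 35116 RefSeq promoter windows of this length, 13.3% hold this motif, and a match is a description of letters and not a shown binding site. The composite amino acid response element TGATGNAA, searched on both strands, was in none of the 10 windows and is in 3.62% of all. HMOX1 and SLC7A11 are the genes without a window, so that neither motif was searched for in them.
GCLM, chr1:93909381-93909680, minus strand: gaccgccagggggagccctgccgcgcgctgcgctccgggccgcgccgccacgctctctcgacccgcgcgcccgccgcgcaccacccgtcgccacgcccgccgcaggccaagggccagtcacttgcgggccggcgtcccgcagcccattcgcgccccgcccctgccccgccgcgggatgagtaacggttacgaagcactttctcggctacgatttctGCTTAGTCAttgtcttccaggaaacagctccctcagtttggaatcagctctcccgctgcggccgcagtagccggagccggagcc
TXNRD1, first start, chr12:104215529-104215828, plus strand: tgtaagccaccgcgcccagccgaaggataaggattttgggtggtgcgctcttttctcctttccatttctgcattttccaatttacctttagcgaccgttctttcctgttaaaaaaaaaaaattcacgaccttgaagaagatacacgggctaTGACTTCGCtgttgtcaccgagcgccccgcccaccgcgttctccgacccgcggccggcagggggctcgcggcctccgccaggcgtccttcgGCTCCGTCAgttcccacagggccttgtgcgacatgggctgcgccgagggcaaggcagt
TXNRD1, second start, chr12:104286782-104287081, plus strand: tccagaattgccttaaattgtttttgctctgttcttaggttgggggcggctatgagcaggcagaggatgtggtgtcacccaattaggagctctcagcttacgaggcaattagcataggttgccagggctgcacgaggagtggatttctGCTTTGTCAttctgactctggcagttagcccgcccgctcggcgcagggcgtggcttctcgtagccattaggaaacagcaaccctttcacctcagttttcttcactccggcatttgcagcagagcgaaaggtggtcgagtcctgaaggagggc
KEAP1, second start, chr19:10502722-10503021, minus strand: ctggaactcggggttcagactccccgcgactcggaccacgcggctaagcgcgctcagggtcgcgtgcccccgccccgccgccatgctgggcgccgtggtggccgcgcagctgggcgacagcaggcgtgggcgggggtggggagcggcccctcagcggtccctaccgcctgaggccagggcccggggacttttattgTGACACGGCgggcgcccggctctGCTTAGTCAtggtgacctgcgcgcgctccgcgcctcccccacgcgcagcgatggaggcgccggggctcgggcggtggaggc
NQO1, chr16:69726511-69726810, minus strand: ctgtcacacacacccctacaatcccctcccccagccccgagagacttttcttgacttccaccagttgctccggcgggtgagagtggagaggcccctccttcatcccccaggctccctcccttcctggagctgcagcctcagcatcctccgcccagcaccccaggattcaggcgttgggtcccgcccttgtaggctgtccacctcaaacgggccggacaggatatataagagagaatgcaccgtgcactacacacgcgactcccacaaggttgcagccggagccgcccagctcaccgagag

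Across backgrounds, HMOX1 and NQO1 were far more abundant in all 4 VIM-high libraries. TXNRD1 and SLC7A11 were so in the VIM-high siNC library, but in siWFDC21P-2 replicates 2 and 3 they were near the levels of another background. The genes of the NRF2 sensor and of the catalytic glutathione step were of like level or highest elsewhere. These levels are descriptions, since backgrounds were found from the expression values. HMOX1 (ENSG00000100292; hg38, chromosome 22, 35380361 to 35394214, plus strand), which encodes the heme-degrading enzyme heme oxygenase 1, ranged over 86.8 to 1572 FPKM in the 4 VIM-high libraries, 15.0 to 24.0 in the 2 EPCAM-high libraries and 7.86 to 20.5 in the 3 KRT8-high libraries. Among the siNC libraries alone, the VIM-high one had 65.4 times the HMOX1 level of the EPCAM-high one and 76.5 times that of the KRT8-high one. NQO1 (ENSG00000181019; chromosome 16, 69706996 to 69726951, minus strand), a quinone reductase, was at 354 to 409 FPKM in the VIM-high, 46.1 to 54.3 in the EPCAM-high and 32.9 to 47.0 in the KRT8-high libraries. The VIM-high range lay wholly above the others for both genes, while the EPCAM-high and KRT8-high ranges overlapped. The share of all tested genes with ranges set apart in this way was not counted, so that it is not a trait particular to these genes.

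TXNRD1 (ENSG00000198431; chromosome 12, 104215779 to 104350305, plus strand), the cytosolic thioredoxin reductase, ranged over 77.5 to 261 FPKM in the VIM-high, 30.5 to 50.2 in the EPCAM-high and 61.1 to 66.2 in the KRT8-high libraries. SLC7A11 (ENSG00000151012; chromosome 4, 138164097 to 138242349, minus strand), the cystine-importing subunit of the system xc- exchanger, was at 2.17 to 15.8 FPKM in the VIM-high, 2.09 and 4.92 in the EPCAM-high and 1.79 to 2.00 in the KRT8-high libraries. Its VIM-high siNC level was 7.55 times the EPCAM-high one and 7.92 times the KRT8-high one, but siWFDC21P-2 replicates 2 and 3 lay inside the EPCAM-high range. SRXN1 (ENSG00000271303; chromosome 20, 646615 to 653370, minus strand), sulfiredoxin, which repairs over-oxidised peroxiredoxins, reached 0.431 to 2.80 FPKM in the VIM-high libraries and at most 0.131 in the others. Of the exonic bases of SRXN1, 85.0% are shared with the annotated gene AL121758.1 on the same strand, so that reads may be lost or split between these 2 genes and the level of SRXN1 is uncertain. Smaller shares of exonic bases overlap an annotated gene on the opposite strand in NQO1 (17.7%) and SLC7A11 (8.97%, with its antisense gene SLC7A11-AS1). Without a stated strand such reads cannot be told apart. In NFE2L2 (17.6%) and GCLC (6.12%) the largest overlap is with a gene on the same strand.

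The glutathione synthesis genes differed less between backgrounds. GCLC (ENSG00000001084; chromosome 6, 53497341 to 53616970, minus strand), the catalytic subunit of glutamate-cysteine ligase, stood at 3.94 to 7.93 FPKM in the VIM-high, 4.94 and 6.11 in the EPCAM-high and 5.02 to 6.43 in the KRT8-high libraries, with all ranges overlapping. GCLM (ENSG00000023909; chromosome 1, 93885205 to 93909456, minus strand), the modifier subunit of the same enzyme, stood at 6.12 to 25.9, at 13.6 and 16.7, and at 2.29 to 10.6 FPKM in the same order. KEAP1 (ENSG00000079999; chromosome 19, 10486120 to 10503741, minus strand) had another order, with 16.5 to 30.3 FPKM in the VIM-high, 67.5 and 85.8 in the EPCAM-high and 18.8 to 22.7 in the KRT8-high libraries, and its EPCAM-high siNC level was 3.29 times the KRT8-high one. NFE2L2 (ENSG00000116044; chromosome 2, 177227595 to 177392697, minus strand) stood at 14.9 to 22.9, at 13.6 and 15.7, and at 10.9 to 18.2 FPKM, and its ranges overlapped. The VIM-high siNC level of NFE2L2 was 1.46 times the EPCAM-high one and 1.26 times the KRT8-high one, far smaller ratios than those of HMOX1 and NQO1.

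**Figure D1:**
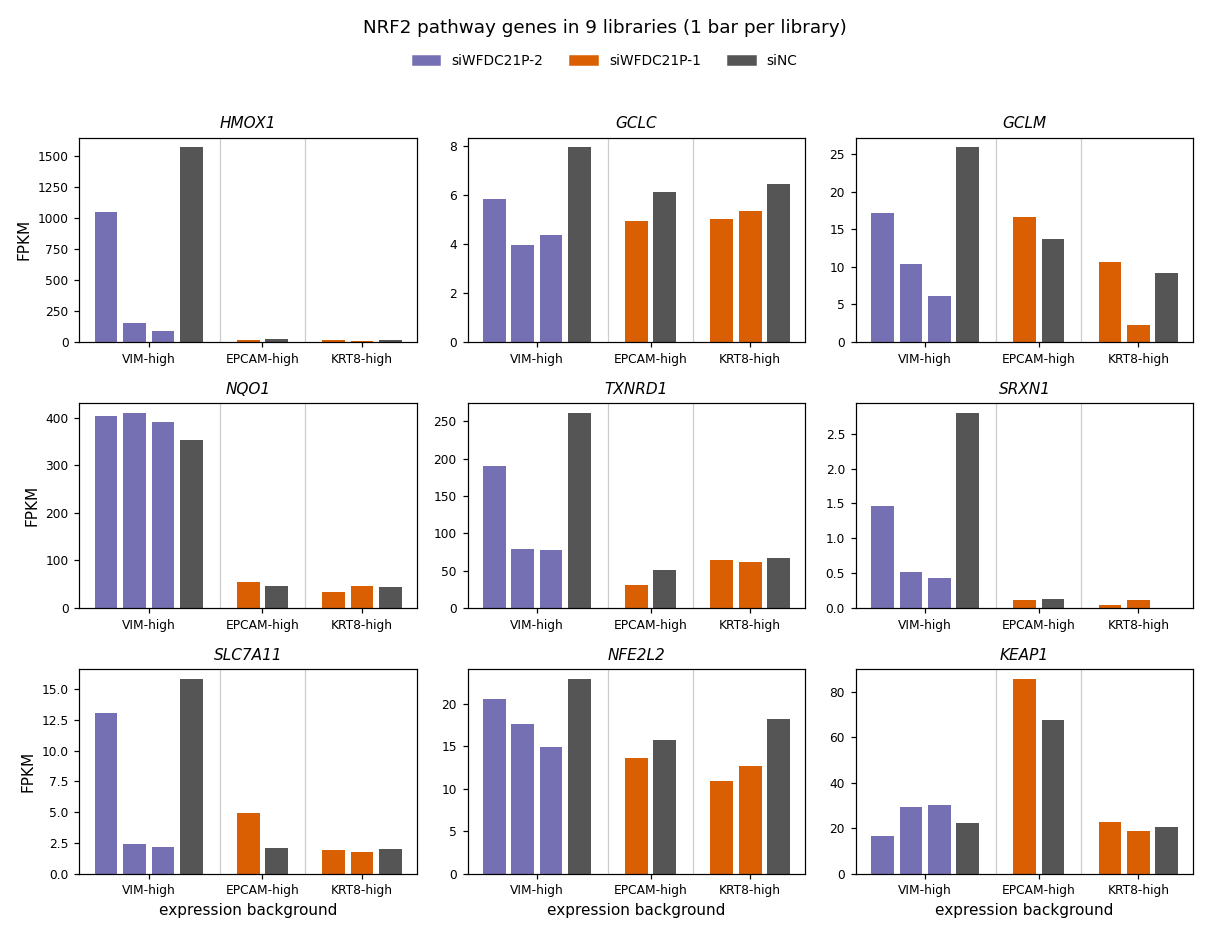
FPKM (linear axis from 0) of the 9 genes, with 1 bar for each of the 9 libraries, ordered by expression background and coloured by siRNA; there are no error bars because each bar is 1 library. In the VIM-high background, HMOX1, TXNRD1, SRXN1 and SLC7A11 are tallest in siNC replicate 3, next in siWFDC21P-2 replicate 1 and lowest in replicates 2 and 3, whereas NQO1 is at 354 to 409 FPKM in all 4 libraries.

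The comparison of siWFDC21P-2 with siNC asked whether these genes change with the second siRNA, in the VIM-high background. HMOX1 had 1048, 151 and 86.8 FPKM in siWFDC21P-2 replicates 1, 2 and 3, against 1572 FPKM in siNC replicate 3. All 3 knockdown libraries were lower, replicates 2 and 3 much further than replicate 1, and replicates 1, 2 and 3 were at 66.6%, 9.60% and 5.52% of the siNC level. In replicate 1 the difference of -0.59 on the log2(FPKM + 1) scale was still below the 5th percentile of all tested genes in that library, -0.47. The counting intervals (95%, exact, on 43828, 6074 and 3589 reads against 61634) were 65.8 to 67.5%, 9.35 to 9.86% and 5.34 to 5.71%, and they cover counting error only. Of the 13014 tested genes, 13 had a lower difference from siNC than HMOX1 in replicate 2 and 6 in replicate 3, but 377 did in replicate 1. The log2 fold change was -2.71 ± 1.16 (SE), and it did not pass (limma adjusted p = 0.756, unadjusted p = 0.0501). In bulk RNA, fewer cells that express a gene and less of its RNA per cell cannot be told apart.

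SLC7A11 showed a like step between replicates, with 13.0, 2.39 and 2.17 FPKM with siWFDC21P-2, against 15.8 FPKM with siNC. Replicate 1 was at 82.3% of siNC (77.6 to 87.2%), and replicates 2 and 3 were at 15.1% (13.5 to 16.8%) and 13.7% (12.3 to 15.4%). TXNRD1 had 190, 78.5 and 77.5 FPKM with siWFDC21P-2, against 261 FPKM with siNC. These are 72.8%, 30.1% and 29.7% of the siNC level, so that replicates 2 and 3 were nearly equal and well below replicate 1. In the limma fit, the log2 fold changes of SLC7A11 and TXNRD1 were -1.66 ± 0.78 and -1.30 ± 0.50, neither of which passed (adjusted p = 0.756 for both).

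SRXN1 had 1.47, 0.509 and 0.431 FPKM with siWFDC21P-2, against 2.80 FPKM with siNC, from 69, 23, 20 and 123 reads. Every knockdown library was lower than siNC beyond counting error, at 52.6% (38.6 to 71.2%), 18.2% (11.1 to 28.6%) and 15.4% (9.10 to 24.9%). In a fit without the filter on low genes its log2 fold change was -1.12 ± 0.31 and did not pass (limma adjusted p = 0.566).

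For the glutamate-cysteine ligase subunits the values were lower as well. GCLM had 17.1, 10.3 and 6.12 FPKM with siWFDC21P-2, against 25.9 FPKM with siNC, and GCLC had 5.84, 3.94 and 4.36 FPKM, against 7.93 FPKM. All 3 knockdown libraries lay below siNC for both genes, GCLM at 66.1%, 39.9% and 23.7% and GCLC at 73.6%, 49.7% and 55.0% of it. The log2 fold changes were -1.24 ± 0.73 for GCLM and -0.66 ± 0.23 for GCLC (limma adjusted p = 0.756 for both).

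NQO1, a standard NRF2 target gene, did not share this direction. It had 403, 409 and 390 FPKM with siWFDC21P-2, against 354 FPKM with siNC, and was thus at 110.3% to 116% of siNC in every knockdown library. Its log2 fold change was 0.18 ± 0.26 (limma adjusted p = 0.844). NFE2L2 had 20.5, 17.7 and 14.9 FPKM with siWFDC21P-2, against 22.9 FPKM with siNC, lower in all 3 libraries, with a log2 fold change of -0.36 ± 0.24 (limma adjusted p = 0.756). KEAP1 had 16.5, 29.2 and 30.3 FPKM, against 22.5 FPKM, so that replicate 1 lay below siNC and replicates 2 and 3 above it (0.12 ± 0.35, limma adjusted p = 0.942).

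None of the 8 tested members passed for siWFDC21P-2, and 0% of all tested genes did (limma, with a threshold of 0.05 on p after Benjamini-Hochberg adjustment). At an unadjusted p under 0.05 stood 2 members, GCLC and TXNRD1, and 682 of all tested genes, and limma-voom on reads recovered from the FPKM called 0 members. Below siNC in all 3 siWFDC21P-2 libraries were 7 of the 9 genes. Without the untested SRXN1 these are 6 of the 8 tested members, beside 26% of all tested genes. Above it in all 3 was NQO1 alone, beside 26.9%. The order siNC, then replicate 1, then replicates 2 and 3 was held by the 7 lower genes, the untested SRXN1 included, beside 17.1% of all tested genes. A gene in this order is always below siNC in all 3 libraries. Of the 3380 tested genes below it in all 3, 2231 held the order, so that most lower genes shared it. Over 1 log2 unit below siNC were 0 of the 8 tested members in replicate 1, beside 0.661% of all tested genes, and 4 in each of replicates 2 and 3 (HMOX1, GCLM, TXNRD1 and SLC7A11), beside 4.26% and 3.71%. None was over 1 log2 unit above siNC, beside 0.576%, 5.18% and 4.78% of all tested genes in replicates 1, 2 and 3. The call depended on 1 library. siWFDC21P-2 replicate 1 correlated with siNC replicate 3 at r = 0.985, against 0.928 and 0.935 for replicates 2 and 3, and without it 4 of the 8 tested members passed, all lower, beside 6.93% of all tested genes called and 2.61% called lower. These were HMOX1 (-3.77 ± 0.41, limma adjusted p = 0.0102), TXNRD1 (-1.73 ± 0.22, 0.0145), SLC7A11 (-2.36 ± 0.31, 0.0160) and GCLC (-0.80 ± 0.17, 0.0476). In that fit 0 of the 8 passed for siWFDC21P-1, beside 1.18% of all tested genes. The siWFDC21P-2 values rest on 2 knockdown libraries and 1 control, with the spread taken from all remaining libraries.

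Markers of leukocytes and endothelium were low in the VIM-high libraries. The 7 of 10 leukocyte and macrophage markers listed in all tables, a cell class known for high HMOX1, summed to 2.33, 7.60 and 9.20 FPKM in siWFDC21P-2 replicates 1 to 3, against 1.42 FPKM in siNC replicate 3, and PTPRC, the pan-leukocyte marker, was at or below 0.160 FPKM in all 9 libraries and at 0 in the EPCAM-high pair. CD14, named after its values were seen, made up most of that sum (1.98, 6.97 and 8.70 FPKM, against 1.11 FPKM). The same list summed to 30.5 FPKM with siWFDC21P-1 against 36.5 FPKM with siNC in the EPCAM-high pair, and to 1.03 and 1.41 FPKM with siWFDC21P-1 against 3.93 FPKM with siNC in the KRT8-high background. The 7 endothelial markers summed to 0.190, 2.03 and 4.96 FPKM with siWFDC21P-2, against 0.203 FPKM with siNC. The 10 mesenchymal markers summed to 779, 964 and 946 FPKM, against 724 FPKM, and the 10 epithelial markers to 31.8, 18.3 and 21.5 FPKM, against 34.4 FPKM. Within the mesenchymal list VIM went against the sum, with 309, 162 and 178 FPKM in siWFDC21P-2 replicates 1 to 3, against 310 FPKM. CDH2 had 15.9, 14.7 and 18.1 FPKM, against 17.7 FPKM. In the sums of all 4 lists, as for HMOX1, replicate 1 was the nearest of the 3 to siNC. The part of these markers in the result was not tested.

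**Figure D2:**
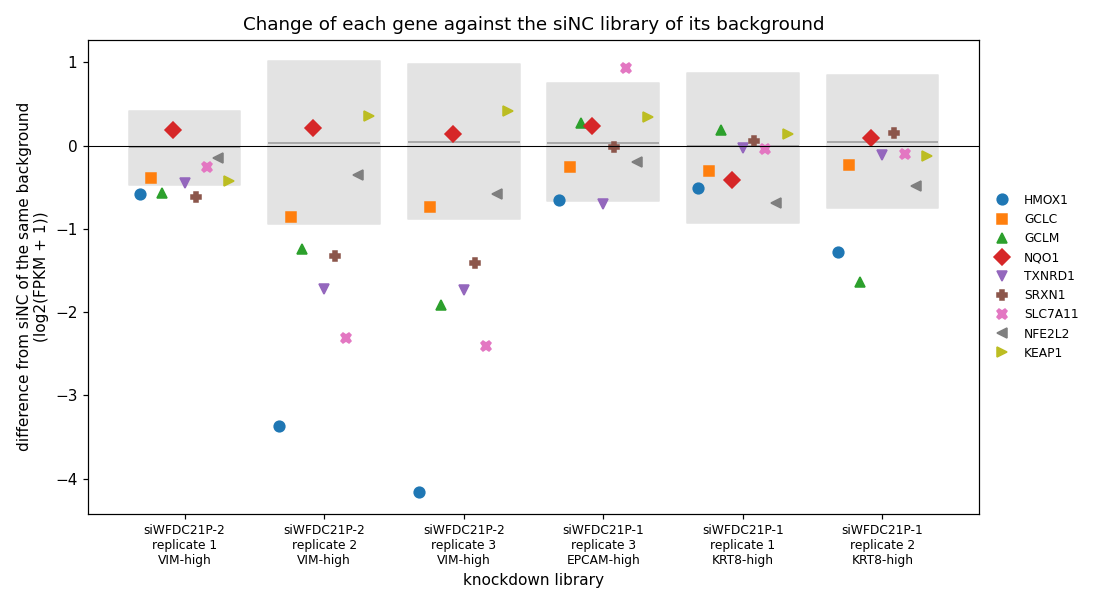
Difference in log2(FPKM + 1) of each gene between a knockdown library and the siNC library of its background, for the 6 knockdown libraries; grey boxes span the 5th to the 95th percentile of the 13014 tested genes, and the grey line is their median. In siWFDC21P-2 replicates 2 and 3, HMOX1 (-3.37 and -4.16), SLC7A11, TXNRD1, GCLM and SRXN1 lie below the box, whereas NQO1 and KEAP1 lie inside it.

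The comparison of siWFDC21P-1 with siNC covered the EPCAM-high and the KRT8-high background. HMOX1 was below siNC in all 3 siWFDC21P-1 libraries. It had 15.0 FPKM in the EPCAM-high siWFDC21P-1 library, against 24.0 FPKM in its control. In the KRT8-high background it had 14.2 and 7.86 FPKM with siWFDC21P-1, against 20.5 FPKM with siNC. These are 62.2% (57.5 to 67.4%) in the EPCAM-high background and 69.1% (63.6 to 74.9%) and 38.3% (34.7 to 42.2%) in the KRT8-high background, all below siNC beyond counting error. The log2 fold change over both backgrounds was -0.79 ± 0.93 and did not pass (limma adjusted p = 0.752). The spread behind this SE was estimated from all 9 libraries, those of the VIM-high background included. Without siWFDC21P-2 replicate 1 the same log2 fold change had an SE of 0.31 and did not pass either (limma adjusted p = 0.223). In these 3 libraries 676, 1889 and 151 of the tested genes had a lower difference from siNC than HMOX1. The summed FPKM of the 10 epithelial markers was lower in the same libraries. It was 1177 FPKM with siWFDC21P-1 against 1833 FPKM with siNC in the EPCAM-high pair. In the KRT8-high background it was 218 and 279 FPKM with siWFDC21P-1 against 494 FPKM with siNC. Not every marker followed the sum. In the EPCAM-high pair KRT19 (474 against 925 FPKM) and KRT8 (135 against 293 FPKM) were lower. There EPCAM (228 against 209 FPKM) and CDH1 (59.6 against 42.7 FPKM) were higher. The 10 mesenchymal markers summed to 10.1 FPKM against 27.2 FPKM in the EPCAM-high pair, and to 52.2 and 54.2 FPKM with siWFDC21P-1 against 55.95 FPKM with siNC in the KRT8-high background. The part of these markers in the HMOX1 values was not tested.

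NFE2L2 was lower in all 3 siWFDC21P-1 libraries as well. It had 13.6 FPKM in the EPCAM-high siWFDC21P-1 library, against 15.7 FPKM with siNC, and 10.9 and 12.7 FPKM in the KRT8-high siWFDC21P-1 libraries, against 18.2 FPKM. The log2 fold change was -0.42 ± 0.20 (limma adjusted p = 0.402, unadjusted p = 0.0676). GCLC had 4.94 FPKM against 6.11 FPKM in the EPCAM-high pair, and 5.02 and 5.34 FPKM with siWFDC21P-1 against 6.43 FPKM with siNC in the KRT8-high background, which puts every knockdown library at 78.0 to 83.1% of siNC (-0.26 ± 0.19, limma adjusted p = 0.576).

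TXNRD1 differed in size between the backgrounds. It was at 30.5 FPKM with siWFDC21P-1 against 50.2 FPKM with siNC in the EPCAM-high pair (60.6%), and at 64.6 and 61.1 FPKM with siWFDC21P-1 against 66.2 FPKM with siNC in the KRT8-high background (97.6% and 92.4%). The log2 fold change over both was -0.34 ± 0.40 (limma adjusted p = 0.746).

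GCLM had 16.7 FPKM with siWFDC21P-1 against 13.6 FPKM with siNC in the EPCAM-high pair, and 10.6 and 2.29 FPKM with siWFDC21P-1 against 9.20 FPKM with siNC in the KRT8-high background. The 2 KRT8-high knockdown libraries thus went opposite ways, at 115% and 24.9% of siNC, and the log2 fold change was -0.30 ± 0.59 (limma adjusted p = 0.872). SLC7A11 was at 4.92 FPKM with siWFDC21P-1 against 2.09 FPKM with siNC in the EPCAM-high pair, which is 235% (213 to 260%), and at 1.91 and 1.79 FPKM with siWFDC21P-1 against 2.00 FPKM with siNC in the KRT8-high background, where both counting intervals include 100%. Over both backgrounds its log2 fold change was 0.36 ± 0.62 (limma adjusted p = 0.846).

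NQO1 had 54.3 FPKM with siWFDC21P-1 against 46.1 FPKM with siNC in the EPCAM-high pair, and 32.9 and 47.0 FPKM with siWFDC21P-1 against 44.2 FPKM with siNC in the KRT8-high background, so that its libraries lay on both sides of their controls. KEAP1 had 85.8 FPKM against 67.5 FPKM in the EPCAM-high pair, and 22.7 and 18.8 FPKM with siWFDC21P-1 against 20.5 FPKM with siNC in the KRT8-high background, likewise on both sides. SRXN1 had 9 reads with siWFDC21P-1 against 10 with siNC in the EPCAM-high pair, and 3 and 9 reads with siWFDC21P-1 against 0 with siNC in the KRT8-high background, at which depth no fold is given.

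None of the 8 tested members passed for siWFDC21P-1, beside 0.0231% of all tested genes (limma), and limma-voom also called 0. With all libraries in the fit none had an unadjusted p under 0.05, beside 1790 of all tested genes. Without siWFDC21P-2 replicate 1, HMOX1 and NFE2L2 had an unadjusted limma p of 0.0423 and 0.0369. In that fit 2708 of all tested genes had an unadjusted p under 0.05, and neither member passed. Below siNC in all 3 siWFDC21P-1 libraries were 4 of the 8 tested members (HMOX1, GCLC, TXNRD1 and NFE2L2), beside 20.7% of all tested genes. The same 4 lay below siNC in all 6 knockdown libraries, beside 7.92% of all tested genes. None was above siNC in all 3 siWFDC21P-1 libraries or in all 6, beside 27.9% and 10.8%. Over 1 log2 unit below siNC were 0 of the 8 tested members in siWFDC21P-1 replicate 1, 2 in replicate 2 (HMOX1 and GCLM) and 0 in replicate 3, beside 4.15%, 2.47% and 1.84% of all tested genes. None was over 1 log2 unit above siNC in these libraries, beside 3.33%, 3.03% and 2.02%.

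The difference between the siRNAs, and that between backgrounds, were tested as contrasts of their own. For siWFDC21P-2 minus siWFDC21P-1 no member passed, beside 0% of all tested genes, and the largest differences were those of SLC7A11 (-2.02 ± 1.00, limma adjusted p = 0.830) and HMOX1 (-1.92 ± 1.49, 0.833). Without siWFDC21P-2 replicate 1, SLC7A11 passed in this contrast (-2.72 ± 0.39, limma adjusted p = 0.0385), as did 1.4% of all tested genes. Because the siRNAs were used in different backgrounds, a difference between siRNAs and one between backgrounds cannot be told apart. For the siWFDC21P-1 effect, EPCAM-high minus KRT8-high, no member passed either, beside 0% of all tested genes (limma). The difference was 1.01 ± 1.38 for SLC7A11 and -0.63 ± 0.87 for TXNRD1, from a single EPCAM-high pair. The spread behind these SEs was taken from all libraries, those of the VIM-high background included. Without siWFDC21P-2 replicate 1 the same differences had SEs of 0.24 and 0.19, and neither passed.

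Other genes of the pathway were counted in lists chosen by function, and each count is to be read against the shares of all tested genes: 26% below and 26.9% above siNC in all 3 siWFDC21P-2 libraries, and 20.7% below and 27.9% above in all 3 siWFDC21P-1 libraries. The list of ATF4 and amino acid response genes, in which SLC7A11 is not counted, and the inducible heat shock list had the largest shares of genes below siNC with siWFDC21P-2. Of 28 tested amino acid response genes 23 were below siNC in all 3 siWFDC21P-2 libraries (82.1%, beside 26% of all tested genes), and the median log2 fold change was -1.10, beside 0.02 over all tested genes. PSAT1, an enzyme of serine synthesis, had 105, 76.2 and 92.1 FPKM with siWFDC21P-2, against 209 FPKM with siNC, and VLDLR, a lipoprotein receptor, had 3.75, 0.653 and 0.897 FPKM, against 6.78 FPKM. With siWFDC21P-1 the same list had a median of 0.28, with 4 of 28 below siNC in all 3 libraries. Of 15 inducible heat shock genes 11 were below siNC in all 3 siWFDC21P-2 libraries (73.3%, beside 26%, with a median of -0.52). Among them was the HSP40 gene DNAJB1 with 154, 37.6 and 37.9 FPKM, against 294 FPKM. With siWFDC21P-1 the heat shock list had a median of 0.23. There 6 of the 15 were above siNC in all 3 libraries (beside 27.9% of all tested genes) and 1 was below (beside 20.7%). None of these genes passed with all libraries in the fit. Without siWFDC21P-2 replicate 1, 15 of the 28 and 5 of the 15 were called lower by limma, beside 2.61% of all tested genes, among them VLDLR (-2.14 ± 0.20, limma adjusted p = 0.00711) and DNAJB1 (-2.93 ± 0.33, 0.0108).

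Of 17 tested genes of glutathione synthesis and use 6 were below siNC in all 3 siWFDC21P-2 libraries (35.3%, beside 26% of all tested genes; median -0.08), and 9 were with siWFDC21P-1 (52.9%, beside 20.7%; median -0.23, beside 0.03). The difference between these counts was not tested, and none of the 17 genes passed. SLC3A2, the heavy chain that pairs with SLC7A11 in the plasma membrane, had 133, 40.4 and 47.2 FPKM with siWFDC21P-2, against 148 FPKM with siNC, and in the fit without siWFDC21P-2 replicate 1 it was called lower (-1.74 ± 0.36, limma adjusted p = 0.0421). ESD, an esterase that releases glutathione from S-formylglutathione, had 26.3 FPKM with siWFDC21P-1 against 17.4 FPKM with siNC in the EPCAM-high pair, and 19.6 and 14.7 FPKM with siWFDC21P-1 against 12.4 FPKM with siNC in the KRT8-high background, higher in all 3 libraries (0.49 ± 0.18, limma adjusted p = 0.285). GLO1, a glyoxalase, was lower in all 3 (-0.51 ± 0.21, limma adjusted p = 0.339). It had 46.0 FPKM with siWFDC21P-1 against 67.1 FPKM with siNC in the EPCAM-high pair, and 107 and 71.3 FPKM with siWFDC21P-1 against 123 FPKM with siNC in the KRT8-high background.

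Of 14 thioredoxin and peroxiredoxin genes 8 were above siNC in all 3 siWFDC21P-2 libraries, beside 26.9% of all tested genes, with a median of 0.43, beside 0.02. None of the 14 passed with all libraries in the fit, and TXNRD1 and SRXN1, not counted among them, were below siNC. PRDX4, the peroxiredoxin of the endoplasmic reticulum, had 97.7, 123 and 145 FPKM with siWFDC21P-2, against 40.8 FPKM with siNC, and with siWFDC21P-1 54.6 FPKM against 32.1 FPKM in the EPCAM-high pair and 97.4 and 181 FPKM against 41.9 FPKM in the KRT8-high background. Its log2 fold changes were 1.54 ± 0.42 and 1.26 ± 0.33, higher than siNC in 6 of 6 knockdown libraries, and neither passed (limma adjusted p = 0.756 and 0.191). SESN2, a stress-induced sestrin that ATF4 also induces, went the other way, with 54.4, 6.71 and 6.94 FPKM with siWFDC21P-2, against 84.6 FPKM with siNC. In the fit without siWFDC21P-2 replicate 1 it was called lower (-3.45 ± 0.24, limma adjusted p = 0.0039). There 1 of the 14 was called lower and 3 were called higher, beside 6.93% of all tested genes called.

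Among carbonyl and quinone reduction and export genes 7 of 25 were below siNC in all 3 siWFDC21P-2 libraries (28%, near the 26% of all tested genes) and 9 above it (beside 26.9%), with a median of 0.03. With siWFDC21P-1 12 of 25 were below (48%, beside 20.7%; median -0.20). PIR, an iron-binding nuclear protein and known NRF2 target gene, had 19.2 FPKM with siWFDC21P-1 against 8.84 FPKM with siNC in the EPCAM-high pair, and 8.68 and 9.55 FPKM with siWFDC21P-1 against 3.43 FPKM with siNC in the KRT8-high background (1.12 ± 0.16, limma adjusted p = 0.0674). AKR1B1, aldose reductase, had 21.4 FPKM against 31.4 FPKM in the EPCAM-high pair, and 62.6 and 91.2 FPKM with siWFDC21P-1 against 152 FPKM with siNC in the KRT8-high background (-0.80 ± 0.21, limma adjusted p = 0.196). These 2 genes thus had opposite directions in the same 3 libraries.

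In the NADPH supply list 2 of 9 genes were below siNC in all 3 libraries for each siRNA (22.2%, near the 26% and 20.7% of all tested genes for siWFDC21P-2 and siWFDC21P-1), with medians of -0.08 for siWFDC21P-2 and -0.07 for siWFDC21P-1. ME1, malic enzyme 1, had 16.6 FPKM with siWFDC21P-1 against 7.67 FPKM with siNC in the EPCAM-high pair, and 12.4 and 13.1 FPKM with siWFDC21P-1 against 4.85 FPKM with siNC in the KRT8-high background (1.14 ± 0.22, limma adjusted p = 0.114). With siWFDC21P-2 it had 7.59, 4.56 and 5.13 FPKM, against 6.64 FPKM with siNC, on both sides of the control. MTHFD2 had 33.2, 7.88 and 7.30 FPKM with siWFDC21P-2, against 40.4 FPKM with siNC. In the fit without siWFDC21P-2 replicate 1 it was called lower (-2.27 ± 0.38, limma adjusted p = 0.0252). It was the 1 gene of the 9 called lower there, beside 2.61% of all tested genes, and 0 were called higher.

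Of 16 heme and iron genes 4 were below siNC in all 3 siWFDC21P-2 libraries (25%, near the 26% of all tested genes; median 0.09) and 3 in all 3 siWFDC21P-1 libraries (18.75%, near the 20.7%; median -0.03). FTH1, the ferritin heavy chain that stores iron freed from heme, had 806, 439 and 426 FPKM with siWFDC21P-2, against 1207 FPKM with siNC, the same order of libraries as HMOX1 (-1.18 ± 0.52, limma adjusted p = 0.756). FTH1 has many processed copies in the genome with which reads may be shared. HMOX2, the constitutive heme oxygenase, had 19.6, 26.9 and 28.3 FPKM with siWFDC21P-2, against 19.4 FPKM with siNC, so that it was at or above its control where HMOX1 was below.

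Among 22 tested regulators and partner factors of NRF2, 10 were below siNC in all 3 siWFDC21P-2 libraries (45.5%, beside 26%; median -0.15) and 7 in all 3 siWFDC21P-1 libraries (31.8%, beside 20.7%; median -0.05). MAFG, a small MAF partner of NRF2, had 12.8, 10.96 and 10.98 FPKM with siWFDC21P-2, against 18.2 FPKM with siNC (-0.61 ± 0.20, limma adjusted p = 0.756). NFE2L1, the related factor NRF1, had 31.3 FPKM with siWFDC21P-1 against 13.0 FPKM with siNC in the EPCAM-high pair, and 32.3 and 34.0 FPKM with siWFDC21P-1 against 20.5 FPKM with siNC in the KRT8-high background (0.90 ± 0.25, limma adjusted p = 0.209). With siWFDC21P-2 NFE2L1 had 48.1, 34.0 and 28.3 FPKM, against 52.4 FPKM with siNC, below it in all 3 libraries. Of 11 other redox enzymes 2 were below and 4 above siNC in all 3 libraries for each siRNA. Of 6 metallothionein and metal response genes 4 were above siNC in all 3 siWFDC21P-2 libraries, with MT1E at 44.5, 45.8 and 42.3 FPKM, against 21.2 FPKM.

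**Figure D3:**
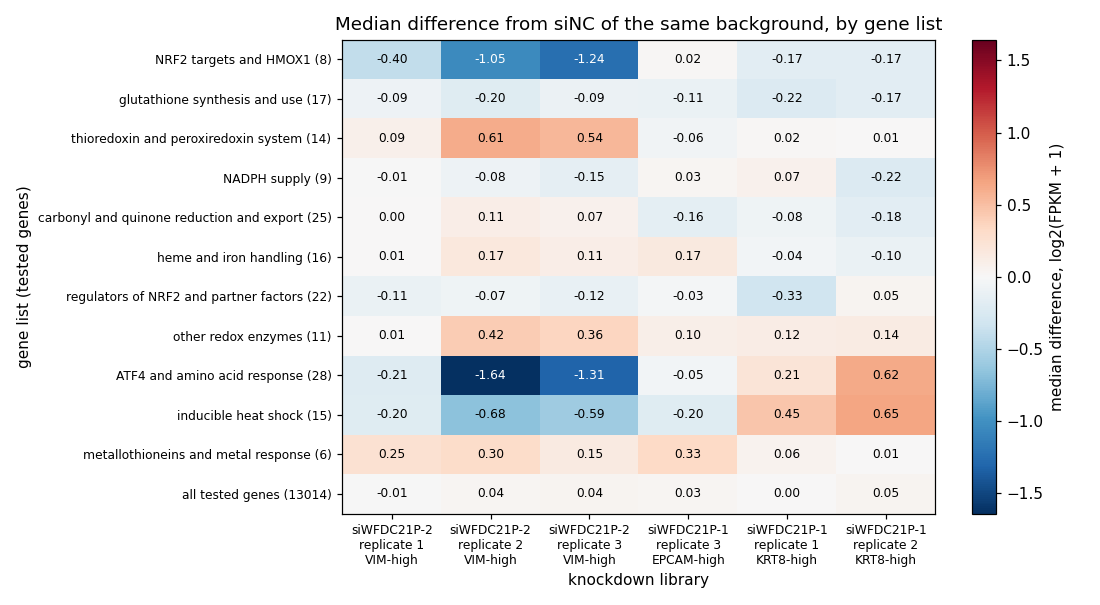
Median difference in log2(FPKM + 1) between each knockdown library and the siNC library of its background, by gene list (number of tested genes in brackets), with all tested genes in the bottom row. The amino acid response list is at -1.64 and -1.31 in siWFDC21P-2 replicates 2 and 3 and at 0.62 in siWFDC21P-1 replicate 2, whereas the carbonyl and quinone list stays within -0.18 to 0.11.

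To see which genes varied most like the members, the 6 differences from siNC were compared with those of every tested gene by root mean square distance, in log2 units. Nearest to HMOX1 were MIR6775 (0.54), HERPUD1 (0.60), LIF (0.65), KLHDC7B (0.66) and SESN2 (0.77). HERPUD1, which acts in degradation of proteins from the endoplasmic reticulum, had 133, 10.1 and 9.29 FPKM with siWFDC21P-2, against 145 FPKM with siNC, and the cytokine gene LIF had 177, 19.6 and 30.3 FPKM, against 224 FPKM. MIR6775 is a short RNA, for which FPKM is uncertain. Among the members, SLC7A11 stood at rank 61, TXNRD1 at rank 84 and GCLM at rank 104 of nearness to HMOX1, whereas NQO1 stood at rank 7621.

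Nearest to SLC7A11 were DLGAP1-AS2 (0.41), PNRC1 (0.41), OSGIN1 (0.42), ATF3 (0.44) and SOD2 (0.44). OSGIN1, an oxidative stress gene that NRF2 is known to induce, had 14.7, 2.90 and 3.35 FPKM with siWFDC21P-2, against 18.0 FPKM with siNC, and ATF3, a stress-induced transcription factor, had 20.2, 2.48 and 3.73 FPKM, against 23.8 FPKM. DLGAP1-AS2 is an antisense RNA, and without a stated strand its reads cannot be told apart from those of its partner gene. Nearest to GCLM were NFATC3 (0.27), TFAM (0.32), ENSG00000240376 (0.34), RBFOX2 (0.35) and XRCC6 (0.37). XRCC6, the DNA repair protein Ku70, shared the split of GCLM in the KRT8-high background, with 220 and 42.1 FPKM in siWFDC21P-1 replicates 1 and 2, against 189 FPKM with siNC. It also shared the lower values with siWFDC21P-2, at 110, 54.0 and 41.6 FPKM, against 122 FPKM with siNC.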

How the data were processed

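FPKM per Ensembl gene were calculated by the authors, 1 table per library; the submitters' processing notes name Bowtie2 2.2.3, HTSeq 0.6.0, the aligner HISAT2 2.1.0 and the build hg38, with no role given, and strandedness is not given in the sources used here. Symbols, exon unions and overlaps came from GENCODE release 29. FPKM times exon length gave whole reads (within 0.02) for 24685 of 26636 common genes and 96.3 to 97.0% of low values; GCLC needed another length.

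Genes averaging 1 FPKM or more were fitted on the log2(FPKM + 1) scale (limma 3.58.1 under R 4.3.3), with group and expression background as terms, trended empirical Bayes and Benjamini-Hochberg adjustment over 13014 genes. The pseudocount understates changes of low genes. Backgrounds were average-linkage clusters (1 minus Pearson r, height 0.15) computed without the members. Fits were tested on simulated data. Alternatives changed the model term, pseudocount, filter, normalization or libraries, or used limma-voom on recovered reads; fits within 1 background were chosen after seeing the data.

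The members, lists and backgrounds were chosen with earlier results of these data known. From each list up to 4 genes with the smallest unadjusted p for either siRNA could be named, and for HMOX1, SLC7A11 and GCLM the 5 nearest genes; PTPRC and CD14 fall outside these rules. No duplicate library was found (0 pairs). Erythroid markers were also listed, of which ALAS2 alone is in all tables, at or below 0.174 FPKM.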

Additional observations from a re-analysis of the deposited data

Results flagged for a closer look

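SLC7A11 was above siNC in the EPCAM-high siWFDC21P-1 library, while in both KRT8-high siWFDC21P-1 libraries its level was slightly under siNC and within counting error of it. It was picked out because the signs of the differences were opposite in the 2 backgrounds. The difference of the effects, EPCAM-high minus KRT8-high, was 1.01 ± 1.38 (SE) on the log2(FPKM + 1) scale and did not pass the limma test of the difference (adjusted p = 1). This SE also holds the spread of the VIM-high libraries. Without siWFDC21P-2 replicate 1 it was 0.24, and the difference did not pass there either. SRXN1 was picked out for the same reason, with a difference of -0.12 in the fit without a filter (limma adjusted p = 1). It had only 0 to 10 reads per library in these 2 backgrounds. In KRT8-high siWFDC21P-1 replicate 2 it lay above siNC beyond counting error, with 9 reads against 0 (95% interval from 195% of siNC upward). In KRT8-high siWFDC21P-1 replicate 1 (3 reads against 0) and in the EPCAM-high pair (9 against 10) the difference was within counting error.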

How the results depend on the processing

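The count of members past the threshold was 0 for siWFDC21P-1, for siWFDC21P-2 and for both differences, and it stayed 0 in every alternative run but 1. Leaving out libraries in turn gave 0 to 4 members for siWFDC21P-2 and 0 to 1 for the difference between siRNAs, both upper values without siWFDC21P-2 replicate 1. Over all alternatives the adjusted p for siWFDC21P-2 ranged over 0.0102 to 1 for HMOX1, 0.0145 to 1 for TXNRD1, 0.016 to 1 for SLC7A11 and 0.0476 to 1 for GCLC. Without siNC replicate 3, siWFDC21P-2 could not be fitted.

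Pairing by replicate number could not be judged from correlations of deviations from group means (-0.683 to 0.667), because these deviations also hold the background. The replicate block changed no call. With the replicate block and the background, siWFDC21P-1 values changed sign for HMOX1 (0.21), GCLM (0.15), NQO1 (-0.056), TXNRD1 (0.045) and KEAP1 (-0.071). With group alone or with the replicate block in place of the background, NQO1 (-1.02) and SLC7A11 (-0.57) did for siWFDC21P-1 and HMOX1 (1.35), TXNRD1 (0.13) and KEAP1 (-0.35) for siWFDC21P-2; these fits mix the backgrounds. With the naming style in place of the background, NQO1 (-0.041) and KEAP1 (-0.16) changed sign for siWFDC21P-1, and with quantile normalization NQO1 (-0.031) did. In the KRT8-high libraries only, NQO1 (-0.16) and SLC7A11 (-0.072) did. None of these values passed, and the cause was not tested.

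Leaving out libraries in turn, siWFDC21P-1 values ranged over -0.72 to 0.27 for GCLM, -0.16 to 0.23 for NQO1 and -0.072 to 0.94 for SLC7A11. For siWFDC21P-2, KEAP1 ranged over -0.031 to 0.39 and HMOX1 over -3.77 to -1.98. Of 296 alternative values, 263 kept direction and side of the threshold. Each background has a single control, and the low read counts of SRXN1 outside the VIM-high libraries limit what can be said of it.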
